A study of Mus musculus with 425 samples.

Results

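F13a1, Cbr2 and Ms4a7 are 3 genes of perivascular macrophages, taken by name from the 15741 gene names in a table of single-cell counts from CD-1 mice, and all 3 were listed in it. F13a1 encodes the catalytic A subunit of coagulation factor XIII, a transglutaminase that cross-links fibrin. Cbr2 encodes carbonyl reductase 2, a short-chain dehydrogenase that reduces carbonyl compounds. Ms4a7 encodes a membrane protein of the MS4A family, whose members cross the membrane several times. Perivascular macrophages lie in the narrow space between brain vessels and the surrounding glia, where they take up material from blood and interstitial fluid. Microglia are the macrophages within the brain tissue itself. The mannose receptor Mrc1, the chemokine Pf4 and the hyaluronan receptor Lyve1 are common markers of the former, and Tmem119 and the purinergic receptor P2ry12 of the latter.

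The series holds 425 cells, of which 16 labelled sscortex were left out and 409, from 195 chips, were used. Postnatal tissue of days 16 to 31, bone marrow apart, gave 356 cells. They came from cortex S1, DentGyr, Amygdala, hypothalamus, ZonaIncerta, SN-VTA, hippo CA1 and striatum, with 1 cell of day 18 from dorsal horn counted among them. A further 43 cells carried the label E11.5-E18.5, 25 from ventral midbrain, 11 from cortex S1 and 7 from dorsal horn, so that no single embryonic day is known for any of them. Bone marrow of day 23 gave 2 cells, dorsal epidermis of day 56 gave 2, and DentGyr, cortex S1 and corpus callosum of days 67 to 90 gave 6. No genotype or treatment is named, the tissue was digested with papain for 25 to 45 min, and the labels name no animals. Each cell held 729 to 10260 counted molecules (unique molecular identifiers, UMIs), with a median of 1969. Levels are given as CPM, a gene's UMIs scaled to a total of 1000000 UMIs.

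Cells were divided by clustering on 18 microglia and 15 perivascular macrophage marker genes, without the 3 genes described here. This gave 179 microglia-like and 230 perivascular macrophage-like (PVM-like) cells. The microglia markers made up at least 83.2% of marker UMIs in every microglia-like cell and at most 52.6% in any PVM-like cell. Adding F13a1, Cbr2 and Ms4a7 to the markers moved 0 cells between the classes. Of the embryonic labels, those of cortex S1 and dorsal horn stood beside RNA of myelinating cells. The 10 oligodendrocyte genes checked summed to 33420 CPM in the PVM-like cells of embryonic cortex S1 and to 123129 CPM in embryonic dorsal horn, against 942 CPM in embryonic ventral midbrain and 39657 CPM in postnatal PVM-like cells. The myelin gene Mog had 48 UMIs in those cortex cells, 95 in dorsal horn and 0 in ventral midbrain. In cortex S1 these UMIs lay in replicates 8 and 9, with 12 and 36, and the other cells of that label had 0. All cells with an embryonic label are therefore named by their labels below, and their embryonic age was not tested.

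All 3 genes lie on the minus strand. In RefSeq (GRCm38.p6, the same assembly as the mm10 named in the submitters' processing notes), F13a1 spans chr13:36867178-37050244, Cbr2 chr11:120729485-120732025 and Ms4a7 chr19:11321039-11336146. Because the 3 genes were present or absent together in most cells, the bases before their outermost start are shown, 5′ to 3′ on the coding strand. Capitals mark GAGGAA, the core bound by PU.1, the lineage factor of macrophages, and by related ETS proteins. The F13a1 stretch is the 250 bases at chr13:37050245-37050494, that of Ms4a7 the 250 bases at chr19:11336147-11336396, and that of Cbr2 the 157 bases at chr11:120732115-120732271, which end where a GENCODE exon begins.
F13a1: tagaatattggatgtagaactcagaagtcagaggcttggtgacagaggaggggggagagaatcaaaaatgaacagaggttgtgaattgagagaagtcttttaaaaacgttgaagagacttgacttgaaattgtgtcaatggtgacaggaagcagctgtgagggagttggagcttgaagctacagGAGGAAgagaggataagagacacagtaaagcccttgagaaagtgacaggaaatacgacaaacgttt
Cbr2: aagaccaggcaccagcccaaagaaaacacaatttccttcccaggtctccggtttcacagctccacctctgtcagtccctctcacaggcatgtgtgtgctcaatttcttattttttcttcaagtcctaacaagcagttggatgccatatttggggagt
Ms4a7: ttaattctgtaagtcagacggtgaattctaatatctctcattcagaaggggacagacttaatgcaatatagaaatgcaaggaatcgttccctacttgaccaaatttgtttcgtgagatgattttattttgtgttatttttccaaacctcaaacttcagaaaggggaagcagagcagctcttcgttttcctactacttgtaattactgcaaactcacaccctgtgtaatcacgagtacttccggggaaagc
GAGGAA was found once, 66 bases before the F13a1 start, and on neither strand of the other stretches. It occurs on at least 1 strand in 23.3% of 32851 RefSeq windows of 250 bases and in 15.3% of windows of 157 bases. The MAF half-site TGCTGAC, the AP-1 site TGACTCA, the C/EBP site TTGCNNAA and the TATA box TATAAA were found on neither strand of the 3 stretches. These occur in 3.81%, 4.46%, 9.56% and 12.4% of windows of 250 bases and in 2.22%, 2.69%, 6.47% and 7.55% of windows of 157 bases. Such matches describe the letters only. The Cbr2 stretch ends at chr11:120732115, short of the RefSeq start site at chr11:120732021, and the bases between them were not searched.

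The 3 genes were abundant in postnatal PVM-like cells and had no count in postnatal microglia-like cells. F13a1 was counted in 204 of 218 PVM-like cells, or 93.6% (exact 95% interval 89.5 to 96.4%). Cbr2 was counted in 205 cells, or 94.04% (90.0 to 96.8%), and Ms4a7 in 194, or 88.99% (84.1 to 92.8%). In 138 postnatal microglia-like cells, all 3 genes had 0 UMIs, which allows a share of up to 2.17% of cells with a UMI and a level of up to 10.6 CPM over the 283167 UMIs of that class. The median depth was 2022.5 UMIs in the PVM-like and 1734 in the microglia-like cells. Summed levels in PVM-like cells were 2550 CPM for F13a1, 2717 CPM for Cbr2 and 1723 CPM for Ms4a7. Set against the 3-count floor of the microglia-like class as a whole, these were at least 241-fold, 256-fold and 163-fold higher. Intervals and floors cover counting error only. Since the 3 genes were known as perivascular macrophage genes, these levels are a description, and no test of the class difference is given.

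On 45 postnatal chips that held cells of both classes, all 89 PVM-like cells had a count of at least 1 of the 3 genes, with 1693 UMIs between them, and 0 of the 69 microglia-like cells had any. Summed by day over all regions, 12 PVM-like pools averaged 2641 CPM ± 770 (SD) for F13a1, with a range of 1172 to 3588. Cbr2 averaged 3038 CPM ± 1160 (1543 to 5738) and Ms4a7 1683 CPM ± 585 (319 to 2512). All 11 microglia-like day pools were at 0 for the 3 genes, and also for Pf4, a marker that defined the classes. In the same pools, Mrc1 was at 4739 CPM ± 1518 in PVM-like and 4.33 ± 10.1 in microglia-like pools, and Tmem119 at 11.98 ± 26.3 and 983 ± 500. Mrc1 and Tmem119 were also among the markers that defined the classes, so their split follows from the division.

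**Figure D1:**
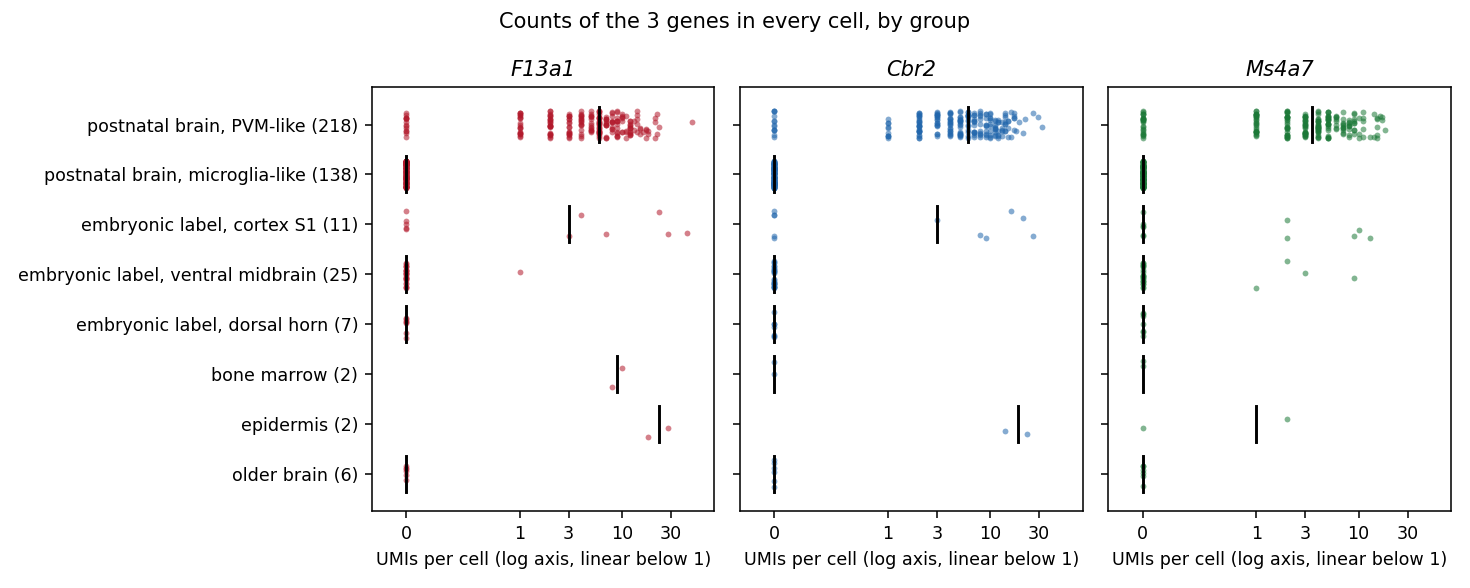
UMIs of F13a1, Cbr2 and Ms4a7 per cell (horizontal, log axis that is linear below 1), by group, with the number of cells in brackets. Each point is 1 cell, jittered vertically, and the black bar is the median. All 138 postnatal microglia-like cells, all 7 embryonic-label dorsal horn cells and all 6 cells of older brain are at 0 for each gene, and of the bone marrow and epidermis cells only the epidermis cells have Cbr2.

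The 3 genes were found together in most PVM-like cells, in amounts that varied from cell to cell. A postnatal PVM-like cell held 0 to 48 UMIs of F13a1 (median 6), 0 to 32 of Cbr2 (median 6) and 0 to 18 of Ms4a7 (median 3.5). In 177 of the 218 cells, or 81.2%, all 3 were counted. A further 35 cells had counts of 2 of them, 2 cells of 1 and 4 cells of none. Ms4a7 was the missing gene in 18 of the 35, F13a1 in 10 and Cbr2 in 7. With every cell thinned to 1000 UMIs, which left out 19 shallower cells of each class, 55.8% of 199 PVM-like cells kept all 3, and 0 of 119 microglia-like cells had any. The thinned shares with a count were 81.4% for F13a1, 82.9% for Cbr2 and 73.9% for Ms4a7.

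In the thinned PVM-like cells, the variance between cells exceeded the mean for each gene, by a ratio of 2.63 for F13a1, 2.84 for Cbr2 and 2.25 for Ms4a7. The same ratio was 2.80 for Mrc1, 4.75 for Pf4 and 7.46 for Lyz2, which encodes lysozyme. Across these 199 cells, which come from many regions and chips, the rank correlation was 0.34 between F13a1 and Cbr2, 0.24 between Cbr2 and Ms4a7 and 0.19 between F13a1 and Ms4a7. The correlation with Mrc1 was 0.46 for F13a1, 0.39 for Cbr2 and 0.31 for Ms4a7. In each case it was higher than the correlations with the other 2 genes, a difference that was not tested. For Cbr2, the correlations with Lyz2 (0.39) and Pf4 (0.38) were about as high as with Mrc1. They were 0.15 and 0.23 for F13a1, and 0.18 and 0.19 for Ms4a7. Of the 199 thinned cells, 35 held the myelin gene Mog and 7 held none of the 3 genes. The part of such cells in these variances and correlations was not tested. Summed over cells, the 14 postnatal PVM-like cells in which at least 25% of marker UMIs came from microglia markers held less of each gene than the other 204. Their levels were 1979 against 2588 CPM for F13a1, 1684 against 2785 CPM for Cbr2 and 1034 against 1768 CPM for Ms4a7. The 15 other perivascular macrophage markers, which the division used, summed to 23512 against 35677 CPM. Endothelial genes were at 5080 against 557 CPM, mitosis genes at 1034 against 77.3 CPM and dissociation response genes at 19406 against 12265 CPM, and oligodendrocyte genes at 13381 against 41376 CPM. Among the 14 were replicate 21 of cortex S1, replicate 10 of ZonaIncerta and replicate 2 of striatum, with 0 UMIs of all 3 genes. That cortex cell, with 4756 UMIs, also held 11 UMIs of the proliferation gene Top2a, the only ones among the 14. The part of these cells and RNAs in the lower levels was not tested.

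Cells from outside the brain carried different combinations of the 3 genes. The 2 bone marrow cells had 10 and 8 UMIs of F13a1, or 4105 CPM together (exact 95% interval 2433 to 6488), and 0 UMIs of Cbr2 and of Ms4a7. A count of 0 in their 4385 UMIs allows up to 684 CPM, which is below the postnatal PVM-like levels of both genes. Clustering had placed these cells with the PVM-like class, but they had 0 UMIs of Mrc1, Pf4, Cd163 and Lyve1, 213 of Lyz2 and 20 of the monocyte chemokine receptor Ccr2. They were therefore not called by that name. The 2 epidermis cells had 18 and 28 UMIs of F13a1, 23 and 14 of Cbr2, and 0 and 2 of Ms4a7. The summed levels were 3649 CPM for F13a1, 2935 CPM for Cbr2 and 159 CPM for Ms4a7 (19.2 to 573), so that Ms4a7 lay below its level in postnatal PVM-like cells beyond counting error. Ms4a7 made up 2.35% (0.286 to 8.24%) of the UMIs of the 3 genes in epidermis and 24.6% (23.3 to 26.0%) in postnatal PVM-like cells. The epidermis cells also held 24 UMIs of Mrc1, 37 of Ccr2, 42 of Cd74, an antigen presentation gene, and 19 of the keratin Krt5. With 2 cells each, these groups have no replicate check.

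**Figure D2:**
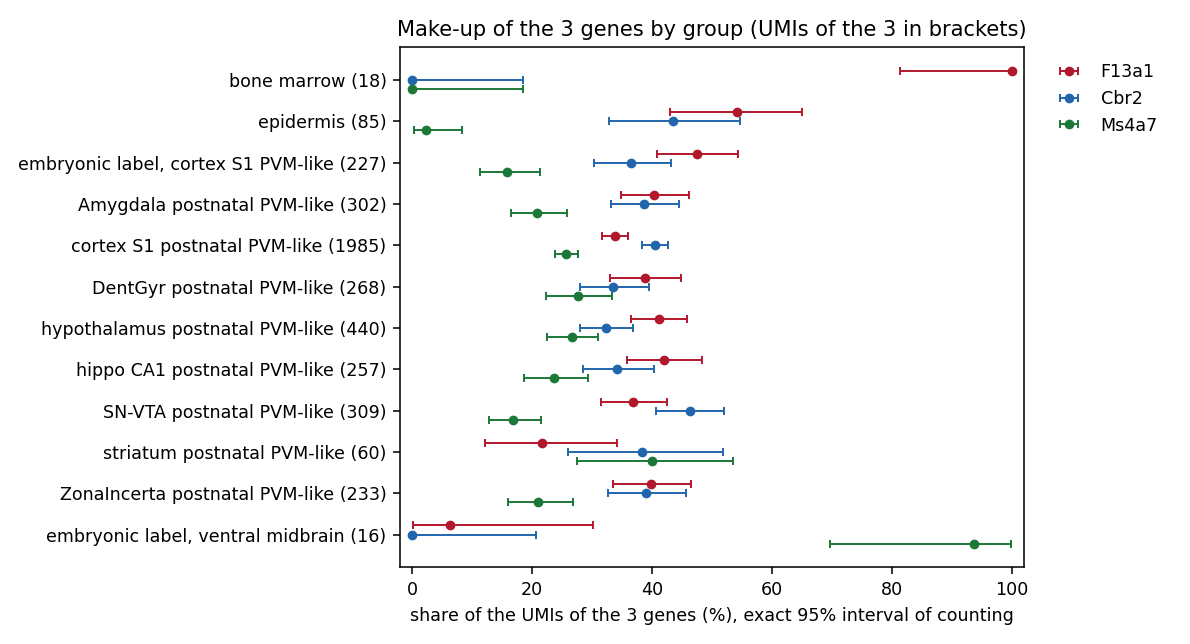
Share of each gene in the summed UMIs of F13a1, Cbr2 and Ms4a7 (horizontal, percent) by group, with that sum in brackets; bars are exact 95% intervals of counting. F13a1 is the only gene of the 3 in bone marrow (18 UMIs), Ms4a7 makes up 2.35% in epidermis, and in embryonic ventral midbrain 15 of the 16 UMIs are of Ms4a7.

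The cells labelled embryonic differed by region and chip. In cortex S1, the 11 cells came from 2 chips. All 4 cells of the first chip were microglia-like, and so was 1 of the 7 cells of the second, and these 5 cells had 0 UMIs of the 3 genes. The other 6 cells of the second chip were PVM-like. Their F13a1 counts were 7, 23, 28, 43, 3 and 4 UMIs, in the order of their replicate numbers. Their Cbr2 counts were 9, 21, 8, 26, 16 and 3, and their Ms4a7 counts 13, 2, 0, 2, 10 and 9. The cells with the most F13a1 thus had little or no Ms4a7, and the 3 cells with 9 or more UMIs of Ms4a7 had 7 or fewer of F13a1. Summed levels were 4851 CPM of F13a1 (3980 to 5857), 3728 CPM of Cbr2 (2970 to 4622) and 1617 CPM of Ms4a7 (1133 to 2239). In postnatal PVM-like cells of the same region, the levels were 2163, 2591 and 1644 CPM. Since all 6 cells came from 1 chip, no test of stage was possible, and stage, chip and animal cannot be told apart.

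In embryonic ventral midbrain, 25 cells on 16 chips held 16 UMIs of the 3 genes in 120991. F13a1 had 1 UMI and Cbr2 0, which allows Cbr2 up to 24.8 CPM and 12% of cells. Ms4a7 had 15 UMIs in 4 cells, or 16.0% of cells (4.54 to 36.1%), at a median depth of 4135 UMIs per cell. Its level was 124 CPM (69.4 to 204), below the 1723 CPM of postnatal PVM-like cells and above the 10.6 CPM allowed in postnatal microglia-like cells. The cell with 9 of these UMIs had 1338 UMIs in all, 0 of Tmem119 and P2ry12, 7 of the microglial chemokine receptor Cx3cr1, 1 of Mrc1 and 1 of Pf4, and 94.7% of its marker UMIs came from microglia markers. It was the only cell of its chip, and without it Ms4a7 was at 50.1 CPM, from 6 UMIs. Another 2 microglia-like cells with 4743 and 3247 UMIs had 3 and 2 UMIs of Ms4a7, beside 10 and 3 of P2ry12. The fourth cell, with 7249 UMIs, was the only PVM-like cell of the region. It held 25 UMIs of Mrc1 with 1 of F13a1, 1 of Ms4a7 and 0 each of Cbr2, Pf4, Cd163 and Lyve1. The 24 microglia-like cells had 14 UMIs of Ms4a7 and none of the other 2 genes. Thinned to 1000 UMIs, 3 of the 25 cells kept Ms4a7 and 0 kept F13a1 or Cbr2. The 10 mitosis genes checked summed to 3455 CPM in ventral midbrain, against 136 CPM in postnatal PVM-like cells.

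The 7 embryonic dorsal horn cells had 0 UMIs of the 3 genes in 16568, which allows up to 181 CPM. All 7 were microglia-like. The 6 cells of older brain also had 0 UMIs of each. Of these, 5 were microglia-like, and the sixth, from DentGyr of day 67, had 865 UMIs and 52.6% of marker UMIs from microglia genes. Clustering had placed that cell with the PVM-like class. It held 20 UMIs of Cd74, 5 of Lyz2, 1 of Mrc1 and 0 of Pf4, Cd163 and Lyve1.

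Region was compared across 27 pools of postnatal PVM-like cells, each the sum of 3 to 27 cells of 1 region and 1 day, with 182 cells and 6 regions in all. Pools of different days hold different animals, while pools of 1 day may share them. The p-values measure the spread between these pools. All 3 genes passed the filter on low counts. By edgeR's quasi-likelihood test with age as a covariate, 39 of the 165 genes tested, 23.6%, differed between regions at an adjusted p under 0.05, and 0 of the 3 genes did. The adjusted p was 0.087 for Ms4a7 (unadjusted p = 0.0271), 0.516 for F13a1 and 0.914 for Cbr2.

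Among the 6 regions tested, Ms4a7 had its highest mean in DentGyr, where the pools of days 21, 22 and 23 had 3797, 3305 and 2343 CPM. Hypothalamus pools of days 21, 23, 25, 27 and 29 had 1612, 3107, 3017, 2093 and 2535 CPM. Cortex S1 pools ran from 1065 to 3374 CPM (median 1560, n = 7) and those of ZonaIncerta at days 19, 21 and 22 were at 319, 3321 and 1685 CPM. The 319 CPM of the ZonaIncerta pool of day 19 is 1 UMI in 3137. Amygdala pools lay between 548 and 2066 CPM (median 1305, n = 6), and the SN-VTA pools of days 21, 23 and 25 were at 1452, 1471 and 746 CPM. The test over all 6 regions did not call Ms4a7, and single pairs of regions were not tested. Means ran from 3148 ± 740 CPM (SD) in DentGyr through 2473 ± 630 in hypothalamus, 1787 ± 820 in cortex S1, 1775 ± 1503 in ZonaIncerta and 1281 ± 527 in Amygdala to 1223 ± 413 in SN-VTA. Neighbours in this order overlapped in range. The Ms4a7 call depended on the setting, with adjusted p = 0.00859 by DESeq2, which called 37.6% of genes, and a range of 0.00859 to 0.423 over the alternatives other than leaving out a pool. Without the ZonaIncerta pool of day 21 it was 0.0478. With day as a block, added after seeing the data, edgeR gave an adjusted p of 0.185 and called 20.6% of genes.

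F13a1 averaged 4219 ± 1992 CPM in hypothalamus, 4059 ± 1934 in DentGyr, 3580 ± 1860 in ZonaIncerta, 2902 ± 936 in SN-VTA, 2628 ± 1048 in Amygdala and 2517 ± 1552 in cortex S1. Its pools ran from 1172 CPM in cortex S1 of day 31 to 7541 CPM in hypothalamus of day 25, and every region overlapped its neighbour. Cbr2 averaged 4179 ± 1369 CPM in ZonaIncerta, 4014 ± 2512 in SN-VTA, 3641 ± 3141 in DentGyr, 2808 ± 1045 in hypothalamus, 2495 ± 825 in cortex S1 and 2271 ± 1131 in Amygdala. Its 3 DentGyr pools, at 2488, 1239 and 7195 CPM, spanned nearly the whole range of 904 to 7195 CPM. The single hippo CA1 pool, of day 27 and outside the test, had 4050 CPM of F13a1, 2175 of Cbr2 and 1725 of Ms4a7. The 5 PVM-like cells of striatum gave no pool, and summed to 1961, 3470 and 3620 CPM of F13a1, Cbr2 and Ms4a7. Of their 24 UMIs of Ms4a7, 7 lay in replicate 12, which had 0 UMIs of Mrc1, Pf4, Cd163 and Lyve1.

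**Figure D3:**
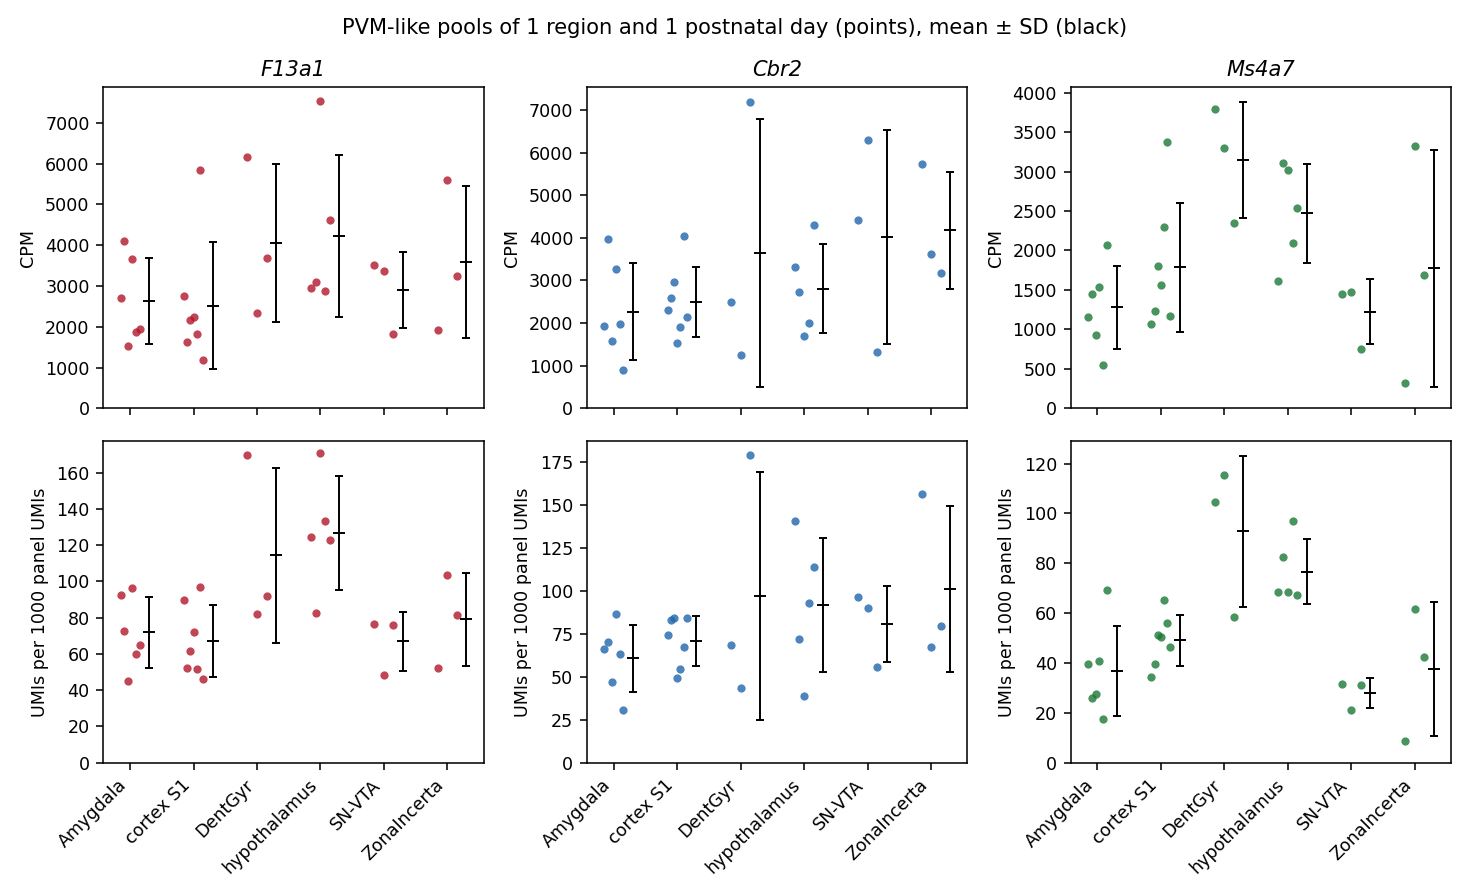
F13a1, Cbr2 and Ms4a7 in PVM-like pools of 6 regions, as CPM (upper row) and as UMIs per 1000 UMIs of the 15 other perivascular macrophage markers (lower row), vertical axes from 0. Points are pools of 1 region and 1 day, and black bars are mean ± SD over 3 to 7 pools. The 3 DentGyr pools of Ms4a7 lie at 2343 to 3797 CPM.

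RNA of other cells took different parts of these pools. The oligodendrocyte genes summed to 8825 to 152679 CPM in SN-VTA and 4274 to 74496 CPM in cortex S1, against 2008 to 3580 CPM in DentGyr and 1033 to 5202 CPM in Amygdala. Dissociation response genes summed to 13776 to 31109 CPM in hypothalamus and 2841 to 18369 CPM in Amygdala. Their part in the regional values was not tested. Scaled to the 15 other perivascular macrophage markers in place of all UMIs, Ms4a7 had 92.8 ± 30.3 UMIs per 1000 marker UMIs in DentGyr, 76.6 ± 12.9 in hypothalamus, 49.01 ± 10.2 in cortex S1, 37.5 ± 26.8 in ZonaIncerta, 36.7 ± 18.2 in Amygdala and 27.9 ± 5.99 in SN-VTA. On that scale F13a1 had 127 ± 31.5 in hypothalamus, 114.4 ± 48.2 in DentGyr and 66.9 to 79.04 as the means of the other 4 regions. With this scaling, chosen after seeing the data, the adjusted p by edgeR was 0.0103 for Ms4a7, 0.0467 for F13a1 and 0.707 for Cbr2, where 30.9% of genes were called.

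Age made no difference that the test called. Over days 19 to 31 in the same fit, 0 of 165 genes, 0% of those tested, were called, with 10 at an unadjusted p under 0.05 by edgeR and 1 called by DESeq2. The log2 slope per day was -0.01 ± 0.04 (SE) for F13a1, -0.02 ± 0.04 for Cbr2 and 0.05 ± 0.04 for Ms4a7, with adjusted p of 0.974, 0.968 and 0.962. The approximate 95% intervals of these slopes were -0.09 to 0.06, -0.11 to 0.06 and -0.03 to 0.14. No region had pools at both day 19 and day 31.

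**Figure D4:**
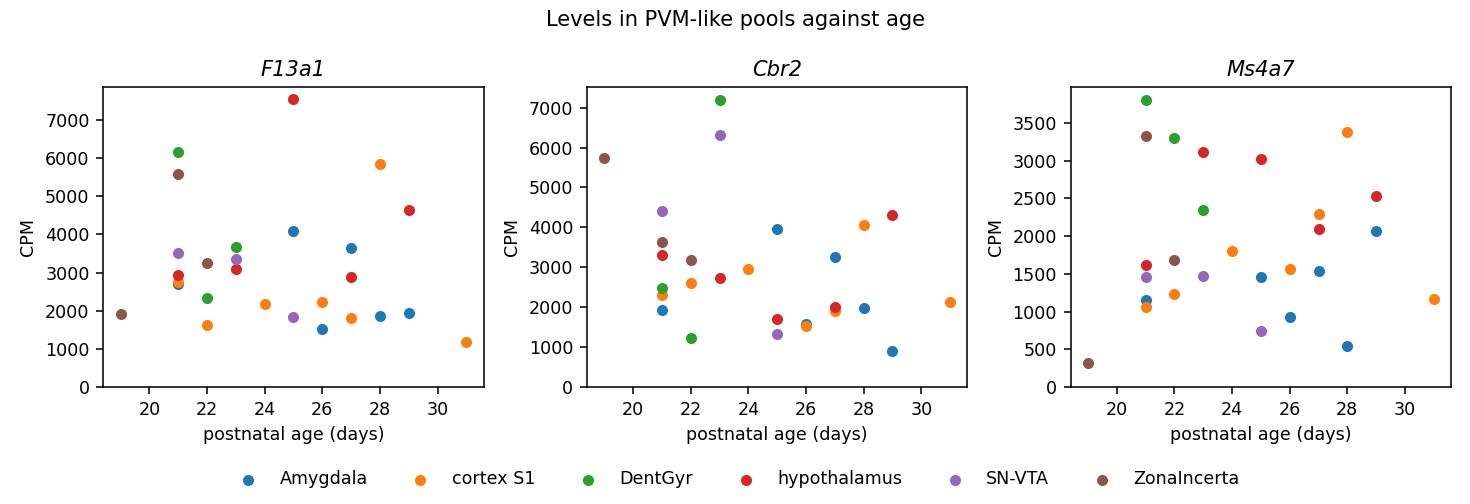
CPM of F13a1, Cbr2 and Ms4a7 (vertical, from 0) against postnatal age in days (horizontal) in the 27 PVM-like pools, coloured by region. No slope of the 3 genes passed the test, and the log2 slopes per day are -0.01, -0.02 and 0.05.

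Genes with the most similar pattern were ranked by Pearson's r of log2(CPM + 50). Over 50 postnatal pools of both classes, the closest to F13a1 among 1459 genes were Dab2 (0.99), Mrc1 (0.99) and Pf4 (0.99), then Ms4a7 (0.98) and Cbr2 (0.98). For Cbr2 they were Pf4, F13a1, Mrc1, Dab2 and Clec4n (0.99 to 0.96), and for Ms4a7 F13a1, Dab2, Mrc1, Pf4 and Cbr2 (0.98 to 0.96). These values rest on the difference between 2 classes, and Dab2, Mrc1, Pf4 and Clec4n are markers that defined them. Within the 28 PVM-like pools, over 662 genes, Ms4a7 ranked 7 for F13a1 and F13a1 ranked 9 for Ms4a7, while Cbr2 ranked 59 for F13a1 and 392 for Ms4a7. F13a1 was closest to Dab2 (0.73), an endocytic adaptor, to the growth factor receptor Csf1r (0.72) and to Mrc1 (0.67). Cbr2 was closest to Gas6 (0.70), a ligand of the TAM receptors, to the NF-kB inhibitor Nfkbia (0.65) and to Ncoa4 (0.65), a receptor for ferritin breakdown. Ms4a7 was closest to the Fc receptor gamma chain Fcer1g (0.77), to the growth factor Igf1 (0.71) and to Lst1 (0.68). In these pools r was 0.62 between F13a1 and Ms4a7, 0.38 between F13a1 and Cbr2 and -0.02 between Cbr2 and Ms4a7. The pools share scaling and differ in depth and in RNA of other cells, so these values are a description.

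Other genes of the same families were read in the same pools of PVM-like cells (n = 28) and of microglia-like cells (n = 22). Over the 13683 genes with a count, the median of the mean level was 32.9 CPM in PVM-like and 32.05 CPM in microglia-like pools. Of 37 coagulation, fibrinolysis and transglutaminase genes, 32 were listed, 18 had a count in the PVM-like pools, and none of them passed the filter for the region test. Over all 32 listed genes, those without a count included, the median was 1.74 CPM in PVM-like and 3.50 CPM in microglia-like pools. The medians over 13683 genes leave out genes without a count, so these values are not like for like. The highest were the plasminogen activator Plau, at 343 ± 400 CPM (SD) against 113.4 ± 165, the anticoagulant protein S gene Pros1, at 162 ± 177 against 267 ± 226, and Plat, at 87.8 ± 121 against 71.8 ± 161, PVM-like before microglia-like.

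Of 36 carbonyl and aldehyde metabolism genes, 32 were listed and all 32 had a count in the PVM-like pools, with a median of 82.9 CPM against 45.6 CPM. Only 2 were tested and 0 were called by region or age, beside 23.6% of all genes by region. The prostaglandin dehydrogenase Hpgd had 853 ± 695 CPM in PVM-like and 270 ± 320 CPM in microglia-like pools, and the biliverdin reductase Blvrb 692 ± 371 and 17.1 ± 37.7 CPM. Dhrs3, a retinaldehyde reductase, had 225 ± 182 and 121 ± 142 CPM. Of 18 genes of the Ms4a family and its Tmem176 relatives, 8 were listed and 6 had a count in PVM-like pools, 2 were tested, and 0 were called. Tmem176b had 834 ± 479 CPM in PVM-like and 548 ± 510 CPM in microglia-like pools. Ms4a6b had 753 ± 377 and 145 ± 158 CPM, and Ms4a6d 496 ± 341 and 111.9 ± 180 CPM. Ms4a6 genes are close copies, so counts may be split between them. All 3 of these relatives had counts in the microglia-like pools, where Ms4a7 had 0.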

How the data were processed

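The authors deposited raw counts, whole numbers of UMIs per gene and cell, for cells captured on C1 chips with a 5′-end protocol, per the labels. The build was mm10 per the submitters' processing notes, with the aligner and counter not given in the sources used here. Totals cover the listed genes. Members and gene lists were chosen with earlier results of these data known. Cells were clustered (Ward) on 33 marker genes, log2 of counts scaled to 2000 UMIs plus 1, into 2 clusters, a number chosen after seeing the data; 0 cells had identical counts, and no doublet caller was run. Counts were summed per region and day (at least 3 cells, 2 pools a region) and fitted with edgeR 4.0.16 (TMM, filterByExpr minimum count 10, quasi-likelihood, region plus day, Benjamini-Hochberg), tested on simulated data; DESeq2 1.42.0 was an alternative. Intervals are Clopper-Pearson for shares and exact Poisson for counts, both at 95%; a count of 0 is bounded by 3 counts. Genes named are F13a1, Cbr2, Ms4a7, called list members or the 3 highest of each list, and the nearest by correlation; markers and the genes of single cells were added. Promoter sequences are from RefSeq, GRCm38.p6, which matched all 3 genes.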

Additional observations from a re-analysis of the deposited data

Results flagged for a closer look

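In 15 groups of 4 to 10 pools or cells, each gene's highest and lowest values were set against the rest by Dixon's rule, which flags about 1 group in 20 by chance, and 2 stood apart. F13a1 in the cortex S1 pool of day 28 was at 5848 CPM, with the next highest of 7 pools at 2761 CPM. Cbr2 in 1 of the 6 PVM-like cells labelled embryonic cortex S1, replicate 6, was at 11200 CPM, with the next at 4168 CPM. In the 16 cells labelled sscortex, which no comparison used, F13a1 had 7 UMIs in 2 cells and Cbr2 4 UMIs in 4 cells among 60035 UMIs, above the 3 counts that bound a count of 0, and Ms4a7 had 0. These levels were 116.6 CPM (exact 95% interval 46.9 to 240) for F13a1 and 66.6 CPM (18.2 to 171) for Cbr2.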

How the results depend on the processing

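The number of genes called by region was 62 with DESeq2, 463 of 13065 with no filter, 17 of 35 with a stricter filter, 10 with pools of at least 5 cells, 12 with thinned cells and 62 with the marker share in place of clustering, beside 39 of 165, and leaving out each pool gave 28 to 61, the last without ZonaIncerta of day 21. Age called 1 gene with DESeq2, with no filter and without region in the fit, and 0 without any 1 pool. Ms4a7 passed by region in 4 of 12 alternatives, with adjusted p = 0.0177 under the stricter filter and 0.0495 with the marker share beside the values given above, and F13a1 passed in 1, with the marker scaling. The F13a1 slope was 0.025 per day (log2) with pools of at least 5 cells. Class means of the 3 genes stayed within 1 SD in all 4 alternatives. In embryonic ventral midbrain, F13a1 was in 0% of cells when thinned, and in 0 to 4.55% when leaving out each chip, Cbr2 in 0% and Ms4a7 in 12.5 to 18.2%. Their levels, added after seeing the data, were 0 CPM for F13a1 and 400.0 CPM for Ms4a7 when thinned, and when leaving out each chip 0 to 9.57 CPM for F13a1, 0 CPM for Cbr2 and 50.1 to 144 CPM for Ms4a7. Of the 10 thinned UMIs of Ms4a7, 8 lay in 1 cell. In embryonic cortex S1, thinned cells gave 4833 CPM of Cbr2 and 2667 CPM of Ms4a7. The first chip held no PVM-like cell, so leaving it out could not change the 4851, 3728 and 1617 CPM. Leaving out the second chip left no PVM-like cell. The causes were not tested. With day as a block, chosen after seeing the data because pools of 1 day may share animals, 34 of 165 genes were called by region and the adjusted p was 0.568 for F13a1, 0.971 for Cbr2 and 0.185 for Ms4a7. Depth limits single cells: in a cell thinned to 1000 UMIs, 1 UMI is 1000 CPM.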
